A study of Mus musculus with 10 samples.

Results

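The 10 genes examined here mark tissue-resident-type macrophages or encode scavenger and other uptake receptors of macrophages: Lyve1, Folr2, Cbr2, Fcna, Vsig4, Marco, Siglec1, Msr1, Adgre1 and Cd5l. They were taken by gene symbol from the deposited tables, where each of the 10 had 1 row among 46956 named loci, and none shared its row with another symbol. The RNA came from tumour-associated macrophages sorted from 4T1 tumours, a mouse mammary carcinoma line grown in the mammary fat pad; the hosts were BALB/cJ mice. Mice of 1 group (5 samples) received the vehicle PBS. Mice of the other group (5 samples) received JHU083 at 1 mg/kg on days 7 to 13, and both groups were harvested and sorted on day 14. In the body JHU083 releases 6-diazo-5-oxo-L-norleucine, which blocks enzymes that use glutamine. The sort kept live cells positive for CD45, CD11b and F4/80 and negative for CD8, Ly6C and Ly6G. The age and sex of the mice, and whether a sample is 1 mouse or a pool, are not given in the sources used here, so the tests measure the spread between these samples.

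Scavenger receptors are surface proteins that bind modified lipoproteins, microbes and cell debris and carry them into the cell. Macrophages that live long in a tissue often carry a set of such receptors and markers: the folate receptor beta (Folr2), the hyaluronan receptor Lyve1, the complement receptor Vsig4 and the sialic acid receptor CD169 (Siglec1). Macrophages newly formed from monocytes tend to carry fewer of them. Adgre1 encodes F4/80, the antigen used in the sort, so its level was measured in cells already chosen for its protein.

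The vehicle libraries held 11147870 to 14575932 fragments and the JHU083 libraries 13638381 to 15740701. General macrophage genes were abundant in both groups: the summed level of 10 such genes, led by Lyz2, was 16496 to 20142 CPM (fragments scaled to library size) in vehicle and 21244 to 27711 CPM in JHU083. Of these 10 genes 4 were higher and 0 lower in JHU083. In 3 vehicle and 2 JHU083 libraries the ribosomal loci Rn18s-rs5 and Gm42418 had an entry of 0, and in the rest they were counted, so the treatment difference is also given within each of these sets of libraries.

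Of the 10 genes 8 had enough fragments to be tested. Vsig4, Adgre1, Siglec1 and Cbr2 rose, Msr1 fell, and Fcna, Folr2 and Lyve1 did not pass the test. The call was an adjusted p under 0.05 in edgeR's quasi-likelihood test, a test for count data, with Benjamini-Hochberg adjustment over the 12500 loci tested. The treatment moved a large share of the transcriptome: 36.7% of these loci were called, 18.4% higher (2296) and 18.3% lower (2293). Scaling to library size only gave 1564 higher and 3141 lower. The 4 higher and 1 lower of the 8 tested genes, and the counts for each gene list, are read against that background. The median log2 fold change was 0.36 over the 8 genes and 0.01 over all tested loci. In sorted bulk RNA, fewer cells of a type and less RNA per cell cannot be told apart.

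**Figure D1:**
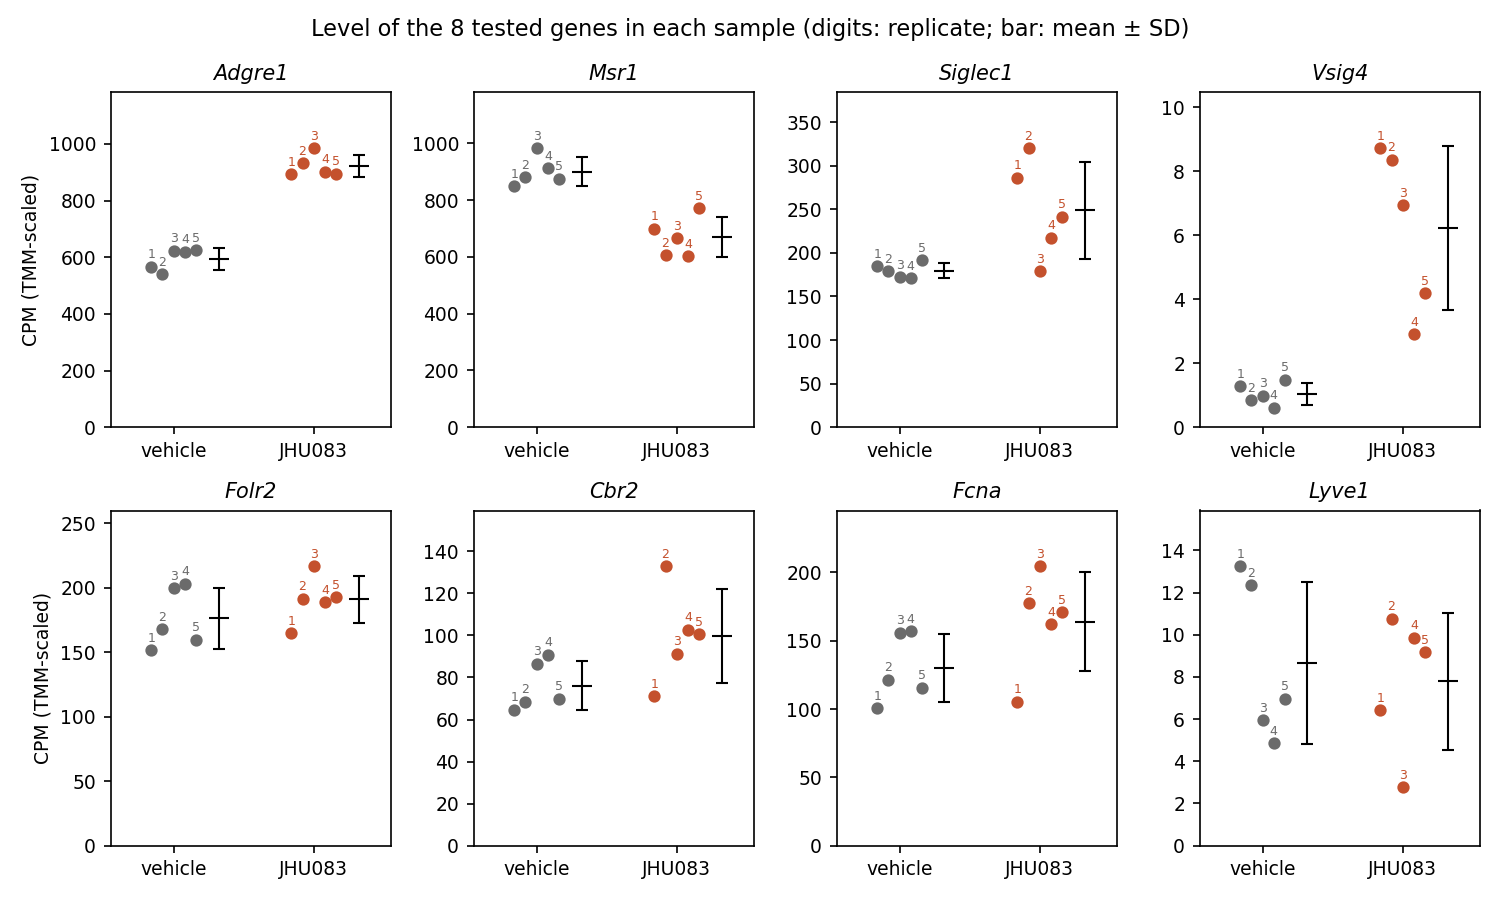
CPM of the 8 tested genes (vertical axes, from 0) in each of the 5 vehicle and 5 JHU083 samples, with replicate numbers beside the points and the mean ± SD as bars. The groups do not overlap for Adgre1, Msr1 and Vsig4. In JHU083 replicate 1 Folr2, Cbr2 and Fcna sit lowest of their group.

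Adgre1 was the gene of the set with the smallest error. F4/80, its product, is an adhesion-type G protein-coupled receptor found on most mouse macrophages. The gene lies on chromosome 17 at 57358691 to 57483527 (GRCm38, plus strand). Its level was 566.8, 539.3, 623.0, 619.5 and 624.9 CPM in vehicle replicates 1 to 5 and 893.2, 932.9, 986.2, 902.5 and 895.0 CPM in JHU083 replicates 1 to 5. Every JHU083 sample lay above every vehicle sample; 22.3% of tested loci had groups that did not overlap in either direction. The means were 594.7 ± 39.3 and 922.0 ± 39.3 CPM (n = 5, ± SD), or 0.63 ± 0.07 on the log2 scale (SE, edgeR adjusted p = 2.18e-05). Within the libraries with the ribosomal loci counted the log2 fold change was 0.61, and within those listed at 0 it was 0.66.

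Msr1 moved the other way. It encodes the class A scavenger receptor SR-A, a trimeric receptor for modified low-density lipoprotein, and lies on chromosome 8 at 39581685 to 39642673 (GRCm38, minus strand). Its level was 848.7, 880.2, 984.1, 913.6 and 875.3 CPM in vehicle replicates 1 to 5. In JHU083 replicates 1 to 5 it was 699.9, 606.9, 665.1, 603.3 and 771.5 CPM. All 5 JHU083 samples were below all 5 vehicle samples, with JHU083 replicate 5 the closest. Msr1 fell by 0.43 ± 0.08 on the log2 scale (SE, edgeR adjusted p = 0.00142). The difference was -0.47 in the libraries with the ribosomal loci counted. It was -0.38 in the 5 libraries where they were listed at 0, where the edgeR adjusted p was 0.0664. On the deposited FPKM scale the groups overlapped, at 305.9 to 392.8 FPKM in vehicle and 237.5 to 318.7 FPKM in JHU083. CPM per FPKM, which rises with the transcript length used for a locus, was 2.49 to 2.86 for Msr1 in vehicle and 2.32 to 2.59 in JHU083. For Adgre1 it varied by 1.95% over all samples, for Msr1 by 23.7%.

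Siglec1 rose in 4 of 5 JHU083 samples above every vehicle sample. It encodes sialoadhesin (CD169), a receptor for sialic acids on other cells and on pathogens, and lies on chromosome 2 at 131069220 to 131086765 (GRCm38, minus strand). Vehicle replicates 1 to 5 held 185.0, 178.8, 171.9, 170.7 and 191.9 CPM, a narrow range. JHU083 replicates 1 to 5 held 286.3, 320.6, 179.2, 217.6 and 241.8 CPM. JHU083 replicate 3 fell within the vehicle range, and the other JHU083 samples were spread widely above it. The log2 fold change was 0.47 ± 0.13 (SE, edgeR adjusted p = 0.0096). It was 0.54 in the libraries with the ribosomal loci counted and 0.37 in those listed at 0, where the edgeR adjusted p was 0.231.

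Siglec1 is known as an interferon-inducible gene, so a list of 15 interferon-stimulated genes was set beside it. Of the 15, 11 were lower, 0 were higher and 4 did not pass, with a median log2 fold change of -0.56. Of all tested loci 18.3% were lower and 18.4% higher. Cxcl10, an interferon-induced chemokine, fell from 41.1 ± 8.31 to 11.9 ± 4.14 CPM (n = 5, ± SD), or -1.79 ± 0.21 on the log2 scale (SE, edgeR adjusted p = 2.78e-05). Isg15, a ubiquitin-like protein induced by interferon, fell from 73.5 ± 14.1 to 31.1 ± 4.51 CPM (n = 5, ± SD), or -1.24 ± 0.13 on the log2 scale (SE, edgeR adjusted p = 1.6e-05). The summed level of the 15 genes was 834 to 1085 CPM in vehicle and 545 to 684 CPM in JHU083. The part of interferon signalling in the Siglec1 difference was not tested.

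**Figure D2:**
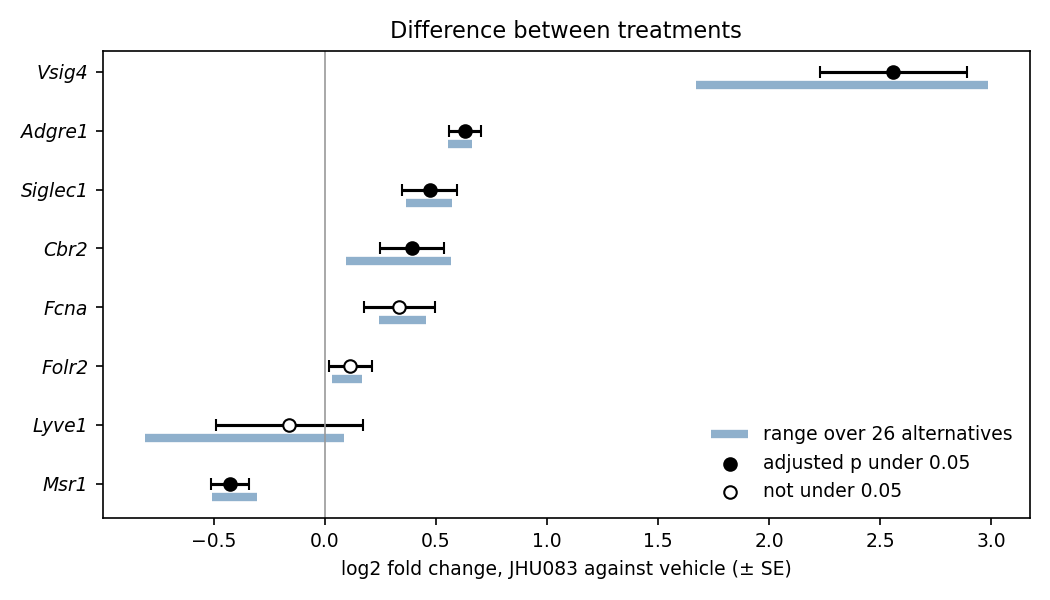
Log2 fold change of the 8 tested genes, JHU083 against vehicle, with its SE (horizontal axis); filled circles passed an adjusted p under 0.05. Blue bars give the range over 26 alternative settings, which crosses 0 for Lyve1 and comes closest to 0 from above for Folr2 and Cbr2.

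Vsig4 showed the largest relative change of the set from the lowest tested level. It encodes CRIg, a complement receptor that binds C3 fragments and also restrains T cells, and is a well-known marker of liver Kupffer cells and other resident macrophages. The gene lies on chromosome X at 96247203 to 96293438 (GRCm38, minus strand). Vehicle replicates 1 to 5 held 19, 11, 13, 7 and 19 fragments, and JHU083 replicates 1 to 5 held 128, 122, 93, 38 and 64. In CPM this was 1.04 ± 0.35 and 6.22 ± 2.57 (n = 5, ± SD), and the lowest JHU083 sample (2.91 CPM, replicate 4) lay above the highest vehicle sample (1.49 CPM, replicate 5). The log2 fold change was 2.56 ± 0.33 (SE, edgeR adjusted p = 6.43e-05), about 5.9-fold. That is higher than 99.9% of the log2 fold changes of all tested loci. The call held in the libraries with the ribosomal loci counted and in those listed at 0 (edgeR adjusted p = 0.00794 and 0.00294). The value was 1.67 with FPKM and a pseudocount of 1, which shrinks changes of low genes.

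Marco and Cd5l, also known as markers of resident macrophages, were not tested. Marco encodes a class A scavenger receptor related to Msr1 and was listed at 0 in all 10 libraries. Since Rn18s-rs5 and Gm42418 are listed at 0 in some libraries and counted in others, such an entry was not read as absence. Cd5l encodes AIM, a secreted scavenger protein, and had 0, 2, 0, 2 and 1 fragments in vehicle and 6, 2, 1, 0 and 0 in JHU083. Most of these counts lie at or under the floor of 3 fragments, which is 0.191 to 0.269 CPM at these depths, so no difference was detectable.

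The 250 bases before the RefSeq start of Vsig4, Marco and Cd5l (GRCm38.p6) are shown because these are the member with the largest change and the 2 members that could not be tested. Capitals mark matches on either strand to GAGGAA (an ETS site of the kind PU.1 binds), TGCTGA (a short MAF site), GAAANNGAA (an interferon response element core), TGANTCA (an AP-1 site) or AGGTCA (a nuclear receptor element). The windows are chrX:96293439-96293688 (minus strand), chr1:120505025-120505274 (minus strand) and chr3:87357631-87357880 (plus strand).
Vsig4: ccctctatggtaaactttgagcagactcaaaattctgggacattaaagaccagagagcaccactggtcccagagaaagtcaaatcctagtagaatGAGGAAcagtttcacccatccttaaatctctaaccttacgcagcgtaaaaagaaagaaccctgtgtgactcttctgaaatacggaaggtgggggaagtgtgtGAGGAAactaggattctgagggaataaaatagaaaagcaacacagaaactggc
Marco: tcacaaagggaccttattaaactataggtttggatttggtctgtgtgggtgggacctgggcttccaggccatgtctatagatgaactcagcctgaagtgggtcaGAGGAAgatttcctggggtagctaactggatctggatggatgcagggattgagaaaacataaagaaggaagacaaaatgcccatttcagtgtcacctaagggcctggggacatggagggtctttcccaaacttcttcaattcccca
Cd5l: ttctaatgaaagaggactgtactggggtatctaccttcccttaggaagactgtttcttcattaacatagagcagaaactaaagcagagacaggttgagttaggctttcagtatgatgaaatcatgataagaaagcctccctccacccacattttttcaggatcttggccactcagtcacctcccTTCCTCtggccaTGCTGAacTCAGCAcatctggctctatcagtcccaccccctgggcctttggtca

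GAGGAA was found in all 3 windows, in Vsig4 at 155 to 150 and 53 to 48 bases before the start. In Marco it lay at 146 to 141 bases and in Cd5l, on the reverse strand, at 66 to 61 bases before the start. Of all 32851 RefSeq promoter windows of this length, 23.3% held GAGGAA on either strand. Among the set, 6 genes had 7 such windows, and 5 of the 7 held it (Marco, Fcna, Cd5l, Cbr2 and Vsig4). Adgre1, Siglec1, Lyve1 and Msr1 had no window. The RefSeq start of the Cbr2 window was not found near the start of a GENCODE transcript of Cbr2, unlike that of the other windows. TGCTGA was in 4 of the 7 windows (Fcna, Cd5l and both of Folr2) and in 16.1% of all windows. Cd5l held it on both strands, at 54 to 49 and 46 to 41 bases before the start. GAAANNGAA and TGANTCA were each in 1 of the 7 windows, both times of Folr2, against 7.13% and 6.75% of all windows. AGGTCA was in 0 of the 7 and in 14.0% of all. A match describes letters in the window and is not a measured binding site.

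Folr2, Cbr2 and Fcna had moderate to high levels and shared their order at the extremes in vehicle and their lowest JHU083 sample, while the highest JHU083 sample was replicate 3 for Folr2 and Fcna and replicate 2 for Cbr2. Folr2 encodes folate receptor beta (chromosome 7, 101839988 to 101857194, GRCm38). Its level was 151.4, 168.0, 199.4, 203.1 and 159.6 CPM in vehicle replicates 1 to 5 and 164.9, 191.6, 216.5, 188.8 and 192.7 CPM in JHU083 replicates 1 to 5. The groups overlapped and 1 JHU083 sample exceeded the vehicle range. The log2 fold change was 0.11 ± 0.10 (SE, edgeR adjusted p = 0.371).

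Cbr2, a carbonyl reductase gene also used as a marker of resident-type macrophages, lies on chromosome 11 at 120729489 to 120732114 (GRCm38). Vehicle replicates 1 to 5 had 64.7, 68.4, 86.6, 90.8 and 69.9 CPM, and JHU083 replicates 1 to 5 had 71.2, 132.8, 91.3, 102.7 and 100.6 CPM. JHU083 replicate 2 was the highest and replicate 1 the lowest of its group, inside the vehicle range. Cbr2 rose by 0.39 ± 0.14 (log2, SE, edgeR adjusted p = 0.0464), close to the threshold. The call was lost in 15 of 26 alternative settings. Without JHU083 replicate 2 the value was 0.27 (edgeR adjusted p = 0.13). The call also ended without JHU083 replicate 4 or 5 and without vehicle replicate 1, 2 or 5, at 0.34 to 0.39. The difference was 0.57 in the libraries with the ribosomal loci counted and 0.09 in those listed at 0 (edgeR adjusted p = 0.779).

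Fcna encodes ficolin A, a soluble lectin that starts the lectin pathway of complement (chromosome 2, 25624666 to 25628030, GRCm38). It had 100.8, 121.6, 155.9, 156.9 and 115.5 CPM in vehicle replicates 1 to 5 and 105.5, 177.3, 204.4, 162.0 and 171.1 CPM in JHU083 replicates 1 to 5. The log2 fold change was 0.33 ± 0.16 (SE) and did not pass (edgeR adjusted p = 0.113), although 4 of 5 JHU083 samples lay above every vehicle sample. Without JHU083 replicate 1 it was 0.46 and passed (edgeR adjusted p = 0.016). Across the 3 genes, vehicle replicates 3 and 4 were the highest of their group and replicate 1 the lowest. In JHU083, replicate 1 was the lowest for all 3.

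Lyve1 was low and its samples were widely spread. It encodes a hyaluronan receptor of lymphatic endothelium that some resident macrophages also carry (chromosome 7, 110850607 to 110863239, GRCm38). Vehicle replicates 1 to 5 had 13.2, 12.3, 5.96, 4.87 and 6.97 CPM and JHU083 replicates 1 to 5 had 6.41, 10.8, 2.76, 9.86 and 9.17 CPM. In vehicle the order ran opposite to Folr2, Cbr2 and Fcna for the extremes: replicate 1 was the highest and replicate 4 the lowest. The log2 fold change was -0.16 ± 0.33 (SE, edgeR adjusted p = 0.733), so a difference within this spread was not detectable. It was 0.05 without vehicle replicate 1 and 0.05 without JHU083 replicate 3. Within the libraries with the ribosomal loci counted it was 0.04 and within those listed at 0 it was -0.81, neither passing. Some genes of lymphatic endothelium were near 0: Prox1 had at most 5 fragments, Ccl21a at most 2 and Mmrn1 at most 1 in any library. Pdpn and Flt4, from the same list of endothelial genes, had enough fragments to be tested and did not pass. The part of lymphatic endothelium in the Lyve1 level was not tested.

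**Figure D3:**
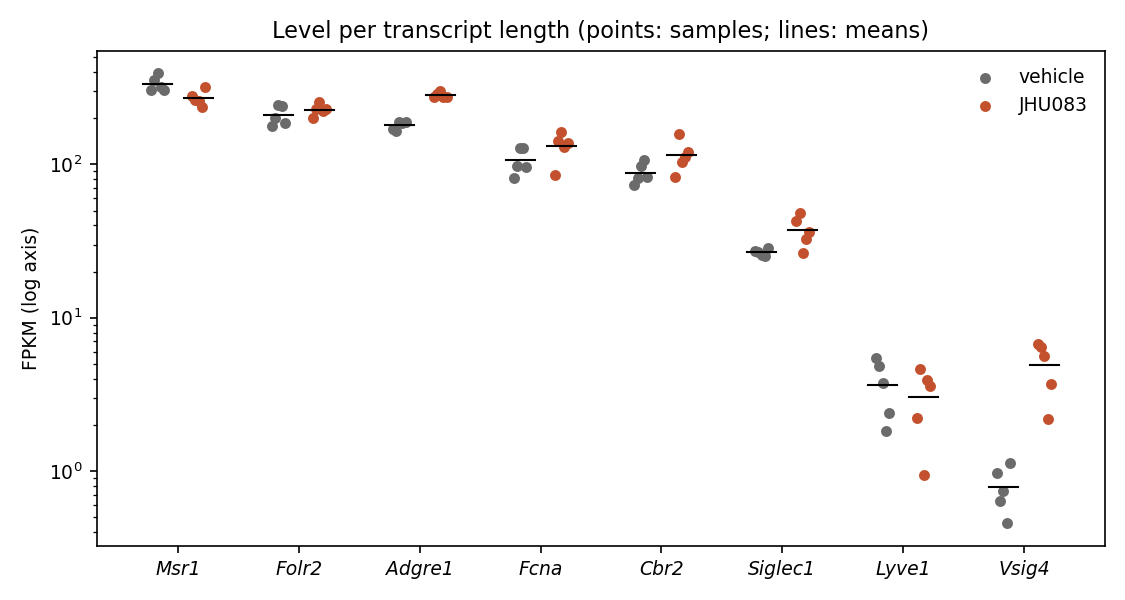
Deposited FPKM (log axis) of the 8 tested genes in each sample, in order of the vehicle mean; lines are group means. Adgre1 passes Folr2 and reaches Msr1 in JHU083, and Vsig4 passes Lyve1 in mean level.

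Levels of different genes were compared per transcript length, in FPKM. In vehicle the order of mean levels was Msr1 (335.8 ± 37.3 FPKM), Folr2 (209.8 ± 30.4), Adgre1 (180.6 ± 11.9), Fcna (106.0 ± 20.6), Cbr2 (88.1 ± 13.5), Siglec1 (26.7 ± 1.29), Lyve1 (3.64 ± 1.54) and Vsig4 (0.79 ± 0.26) (n = 5, ± SD). The ranges over samples overlapped for the neighbours Folr2 and Adgre1 and for Fcna and Cbr2, and not for the other neighbours. In JHU083 Adgre1 was first at 281.7 ± 11.2 FPKM, followed by Msr1 at 271.3 ± 30.7 and Folr2 at 227.4 ± 19.7 (n = 5, ± SD). The ranges of Adgre1 and Msr1 overlapped, as did those of Msr1 and Folr2. Vsig4, at 4.93 ± 1.94 FPKM, stood above Lyve1, at 3.05 ± 1.47 FPKM, with overlapping ranges and in that order in 4 of 5 samples. Lyve1 levels per length carry an added uncertainty, since its CPM per FPKM ranged from 1.60 to 2.93.

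Because the sorting antigen itself rose, each gene was also expressed per 1000 CPM of Adgre1 in the same sample. Msr1 went from 1517 ± 90.6 to 728 ± 91.5 and Folr2 from 296 ± 32.8 to 207 ± 13.6 per 1000 CPM of Adgre1 (n = 5, ± SD), with no overlap between groups. Vsig4 went from 1.75 ± 0.58 to 6.73 ± 2.78 (n = 5, ± SD), again without overlap. The ratios of Siglec1, Cbr2, Fcna and Lyve1 overlapped, so 3 of 7 genes were apart, against 62.1% of all tested loci. For Siglec1 the ratio was 303 ± 26.8 in vehicle and 271 ± 64.4 in JHU083 (n = 5, ± SD). As Adgre1 is the divisor, 61.4% of all tested loci had lower, non-overlapping ratios and 0.76% had higher ones, so the lower ratios of Msr1 and Folr2 are of the common kind and the higher ratio of Vsig4 of the rarer kind.

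**Figure D4:**
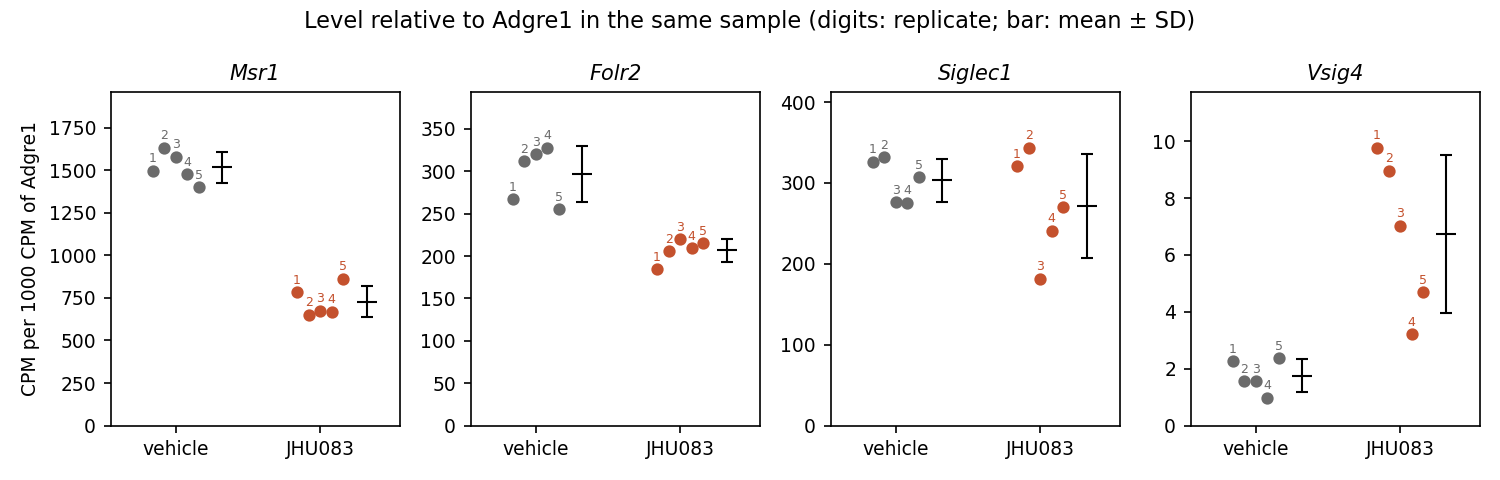
Level of Msr1, Folr2, Siglec1 and Vsig4 per 1000 CPM of Adgre1 in the same sample (vertical axes, from 0), 5 vehicle and 5 JHU083 samples, with the mean ± SD. Msr1 and Folr2 are lower and Vsig4 higher in all JHU083 samples, and Siglec1 overlaps.

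Other markers of resident-type macrophages were read from a list of 25 genes, of which 24 were tested. In JHU083 12 rose, 3 fell and 9 did not pass, with a median log2 fold change of 0.50. Over all tested loci 18.4% rose and 18.3% fell. Retnla, a secreted protein of alternatively activated macrophages, rose from 4.19 ± 0.95 to 31.0 ± 11.6 CPM (n = 5, ± SD), or 2.90 ± 0.28 on the log2 scale (SE, edgeR adjusted p = 7.52e-06). Igf1, the growth factor that many resident macrophages release, rose from 24.8 ± 10.1 to 138.7 ± 49.4 CPM (n = 5, ± SD), by 2.49 ± 0.31 (log2, SE, edgeR adjusted p = 4.81e-05). P2ry12, a purinergic receptor best known from microglia, and Selenop, the selenium carrier listed as Sepp1, rose by 1.24 and 1.23 on the log2 scale. Also higher were Slc40a1 (1.15), the iron exporter ferroportin, Ltc4s, the efferocytosis receptor gene Mertk (0.97), Gas6 (0.74), its ligand, Cx3cr1 (0.69), Mrc1, Stab1 and Hmox1 (0.31).

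The 3 genes that fell did so by little: Mgl2 (-0.39, edgeR adjusted p = 0.0457), Tmem119 (-0.31, edgeR adjusted p = 0.0487) and F13a1 (-0.30, edgeR adjusted p = 0.0268). Their groups overlapped, and they lost the call in 10, 11 and 6 of 26 alternative settings. The count of lower genes was 0 without vehicle replicate 4, and 1 without vehicle replicate 1, 3 or 5 or JHU083 replicate 2 or 4. Timd4, a marker of long-lived resident macrophages, had 3.47 ± 0.85 and 2.70 ± 1.04 CPM (n = 5, ± SD, edgeR adjusted p = 0.312), and Clec4f, a Kupffer cell marker, was listed at 0 throughout. Cd163, the haemoglobin scavenger receptor, ranged from 112.1 to 375.3 CPM in vehicle and from 110.6 to 448.5 CPM in JHU083 (log2 fold change 0.42 ± 0.38, SE, edgeR adjusted p = 0.417). Its lowest JHU083 sample was replicate 1 and its highest vehicle samples were replicates 3 and 4, as for Folr2, Cbr2 and Fcna.

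**Figure D5:**
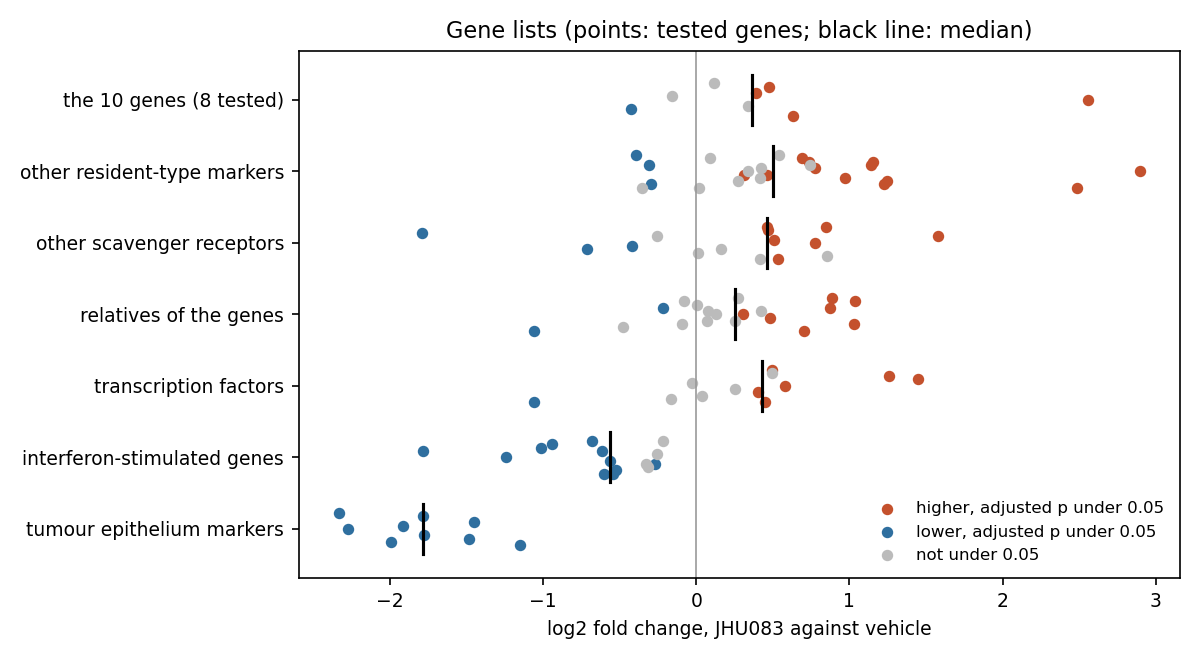
Log2 fold change, JHU083 against vehicle, of the tested genes of each list; colours give the call at an adjusted p under 0.05 and black lines the median. Medians are above 0 for the first 5 lists and below 0 for the interferon-stimulated genes (-0.56) and the tumour epithelium markers (-1.79).

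Other scavenger receptors were read from a list of 20 genes, of which 15 were tested; Cd163, Mrc1 and Stab1 stand on both lists. In JHU083 7 rose, 3 fell and 5 did not pass, with a median log2 fold change of 0.46. The shares over all tested loci were 18.4% higher and 18.3% lower. Cd36, a class B receptor for oxidised lipids, rose from 6.26 ± 0.83 to 18.8 ± 9.03 CPM (n = 5, ± SD), or 1.58 ± 0.28 on the log2 scale (SE, edgeR adjusted p = 0.000635). Clec7a, the beta-glucan receptor Dectin-1, rose by 0.84 ± 0.11 (SE, edgeR adjusted p = 4.81e-05) and Scarb2, a lysosomal membrane protein, by 0.53 ± 0.06 (SE, edgeR adjusted p = 2.33e-05). The mannose receptor gene Mrc1 was 1428 ± 442 CPM in vehicle and 2446 ± 506 CPM in JHU083 (n = 5, ± SD), higher by 0.78 ± 0.20 (SE, edgeR adjusted p = 0.00754), with overlapping groups. Colec12 (0.51), Lrp1 (0.47) and Stab1 (0.46) were also higher.

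The scavenger receptors that fell besides Msr1 were Scara3, Scarf2 and Scarb1. Scara3, a class A relative of Msr1, fell by 1.79 ± 0.39 (log2, SE, edgeR adjusted p = 0.00279), from 5.60 ± 2.48 to 1.61 ± 0.87 CPM (n = 5, ± SD). Scarf2 fell by 0.72 ± 0.18 (log2, SE, edgeR adjusted p = 0.00686). Scarb1, the high-density lipoprotein receptor, fell from 104.3 ± 6.08 to 77.9 ± 7.79 CPM (n = 5, ± SD), by 0.42 ± 0.08 (log2, SE, edgeR adjusted p = 0.00123). Markers of tumour epithelium fell in the same libraries: 9 of 9 were called lower, and their summed level was 299 to 655 CPM in vehicle and 104 to 220 CPM in JHU083. Their part in the falls of Scara3, Scarf2, Scarb1 and Msr1 was not tested.

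Among 22 relatives of the 10 genes 19 were tested, of which 7 rose, 2 fell and 10 did not pass. For comparison, 18.4% of all tested loci rose and 18.3% fell. Those that rose included 3 further sialic acid receptors: Cd33 (119.9 ± 7.31 to 245.7 ± 26.2 CPM, n = 5, ± SD), Cd22 (32.4 ± 2.32 to 66.2 ± 8.68 CPM, n = 5, ± SD) and Siglecf. Their log2 fold changes were 1.03 ± 0.08, 1.03 ± 0.10 and 0.89 ± 0.24 (SE), with edgeR adjusted p of 1.78e-06, 6.86e-06 and 0.0115. Adgre5 and Adgre4, relatives of Adgre1, were higher by 0.87 and 0.70; the Adgre5 locus also lists Mir1668. Hmmr, a hyaluronan-binding protein of the mitotic spindle, fell by 1.06 ± 0.19 (log2, SE, edgeR adjusted p = 0.000634), and Lgals3bp by 0.22 ± 0.07 (log2, SE, edgeR adjusted p = 0.0308). Lgals3bp lost its call in 11 of 26 alternative settings. The folate carrier genes Slc19a1 (-0.09, edgeR adjusted p = 0.493) and Slc46a1 (-0.08, edgeR adjusted p = 0.673) did not pass. The carbonyl reductase genes Cbr1, Cbr3 and Cbr4 did not pass either (0.25, 0.27 and 0.08).

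Transcription factors known from resident-type macrophages were tested for 12 genes, of which 6 rose, 1 fell and 5 did not pass. All tested loci had shares of 18.4% higher and 18.3% lower. Klf4 rose from a mean of 88.2 to 240.7 CPM, by 1.45 ± 0.18 (log2, SE, edgeR adjusted p = 4.73e-05). Spic, a factor of iron-recycling and Kupffer macrophages, rose from 2.61 ± 0.44 to 6.26 ± 0.96 CPM (n = 5, ± SD), by 1.26 ± 0.17 (log2, SE, edgeR adjusted p = 0.000101). Rxra, a nuclear receptor, rose by 0.58 ± 0.08 (SE, edgeR adjusted p = 8.63e-05), and Zeb2 (0.45) and Maf (0.41) were also higher. Id3 fell by 1.06 ± 0.21 (log2, SE, edgeR adjusted p = 0.00166). Zeb2 shares its locus with Mir5129. Nr1h3, the liver X receptor known to act on Cd5l, whose locus also lists Gm13783, did not pass (0.04, edgeR adjusted p = 0.804).

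Markers of other cells were measured in the same libraries. The sort on CD45, Ly6G and Ly6C would remove fibroblasts, endothelium, tumour epithelium, neutrophils and Ly6C-positive monocytes, so their markers are given as a check of the sorted RNA. Eosinophils also carry F4/80; of 9 eosinophil genes 5 were tested and 2 were higher (Alox15 and Siglecf), and the summed level of the 9 was 26.4 to 55.7 CPM in vehicle and 39.5 to 88.1 CPM in JHU083. Cd24a had the highest level of the 9. Prg2, Ccr3 and Cd24a were tested and did not pass. Epx, Il5ra, Ear1 and Ear6 were too low to be tested, with Epx at no more than 0.43 CPM in any library. Of 8 fibroblast genes, all tested, 5 were lower, with sums of 109.7 to 238.8 CPM and 32.4 to 129.5 CPM. Of 9 neutrophil genes 5 were tested and 2 were lower, with sums of 42.0 to 55.5 CPM and 16.1 to 71.3 CPM. Of 11 endothelial genes 5 were tested and 1 was lower, Pecam1, which leucocytes also carry; the sums were 179.8 to 264.1 CPM and 97.1 to 148.7 CPM. Dendritic cell genes (7 of 8 tested, 1 higher, sums of 16.1 to 23.5 and 20.2 to 36.5 CPM) and lymphocyte genes (1 of 10 tested, and that 1 higher, sums of 4.14 to 6.25 and 4.91 to 7.65 CPM) were low in both groups. The monocyte list (6 of 7 tested, 2 higher, 1 lower) was dominated by Fn1, which macrophages express, with sums of 5885 to 7293 and 7692 to 9813 CPM. These counts stand beside 18.4% of all tested loci called higher and 18.3% called lower. The part of these cells in the differences of the 10 genes was not tested.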

How the data were processed

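Messenger RNA of 10 sorted samples was sequenced as paired-end libraries after poly(A) selection, per the labels' protocols. The submitters' processing notes name bcl2fastq 2.17.1.14, FastQC 0.11.2, TopHat2 2.1.1 and the build GRCm38; the counting program and annotation are not given in the sources used here. The authors deposited, per sample, a column headed as raw counts, whose values are not whole and were therefore given the unit expected counts. The values are scaled whole counts: they were whole multiples, within 0.05, of a step of 0.888 to 1.17 per sample for 99.78% to 99.96% of positive values, and were divided by it and rounded to fragment counts. The authors also deposited a column headed only as normalized, read as FPKM from its values, so that this unit is inferred; it was used for levels per length and 2 alternatives. A row without a symbol (0.002% of fragments) was left out.

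Loci passing filterByExpr were fitted with TMM and edgeR 4.0.16 (glmQLFit, glmQLFTest; R 4.3.3), JHU083 against vehicle with no covariate, Benjamini-Hochberg over 12500 loci. The SE is the absolute log2 fold change over the root of F. CPM uses TMM-scaled totals, and the floor unscaled ones. On counts simulated for the 12500 loci of this comparison, with 200 changed by 1 on the log2 scale, 77.5% were recovered and 4.9% of calls were false. A separate simulation with no locus changed gave 0 calls. In the data 36.7% of loci were called, and all tested members but Vsig4 differed by less than 1. The recovery therefore does not give the sensitivity for these genes. Alternatives used DESeq2 1.42.0 and limma 3.58.1. Pairs of samples within a group differed beyond counting noise (chi-square per degree of freedom of at least 5.8), so none was a repeat deposit. Positions come from GENCODE M21 (GRCm38) and promoters from RefSeq.

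The members, gene lists and tests were chosen with earlier results of these data known. Named are all 10 genes, the 4 largest called changes in each direction among other resident-type markers and scavenger receptors, 3 among relatives and transcription factors, and the 2 largest among interferon-stimulated genes; other list genes were named after their values were seen. One gene of the transcription factor list was not analysed here.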

Additional observations from a re-analysis of the deposited data

Results flagged for a closer look

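Among 66 groups of 5 values (the tested members and named genes in each treatment), 2 had a sample far from the other 4, with a gap of over 0.71 of the group's range; chance alone gives about 1 in 20 groups. Vehicle replicate 1 had the lowest Retnla level of its group, 1.41 log2 CPM against 2.19 to 2.30 in the other vehicle samples. JHU083 replicate 3 had the lowest Hmmr level of its group, 2.03 log2 CPM against 2.98 to 3.24. None of the 8 tested genes of the set was singled out in this way; Marco and Cd5l were not examined.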

How the results depend on the processing

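The 8 tested genes were compared with their reported value 208 times (26 alternatives each): 184 kept direction and call, 17 lost the call (15 for Cbr2, 1 each for Siglec1 and Msr1), 3 gained it (Fcna) and 4 changed sign (Lyve1). Vsig4 and Adgre1 kept both in every alternative run, at 1.67 to 2.98 and 0.55 to 0.66. Lyve1 was 0.086 with sample quality weights, 0.039 in the libraries with the ribosomal loci counted, and ranged from -0.31 to 0.052 (0.046 without vehicle replicate 1) with 1 sample left out; the cause was not tested. In the 5 libraries with these loci listed at 0, 532 loci were higher and 586 lower, with 2 members higher and 0 lower, 0 other resident-type markers lower, and 4 other scavenger receptors higher and 0 lower. In the other 5 libraries 1335 loci were higher and 1518 lower; the cause of the difference between these subsets was not tested. Leaving out 1 sample at a time gave 1821 to 2899 loci higher and 1900 to 2930 lower, 3 to 5 members higher and 1 lower, 11 to 13 other resident-type markers higher and 0 to 3 lower, and 7 to 8 other scavenger receptors higher and 3 lower. With the replicate block 1612 loci were higher and 1757 lower, 4 members were higher (Fcna gained and Cbr2 lost the call) and 1 other resident-type marker was lower; same-numbered samples had a mean correlation of deviations of -0.19, 0 of 5 pairs were over 0.1, and the labels do not say that numbers pair mice. Among the 25 other named genes 46 of 650 comparisons lost the call, in 11 genes, and 0 changed sign. Genes under about 0.27 CPM cannot be compared at these depths; this floor covers counting error alone.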

Other observations

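Some genes outside the named set were picked after their values were seen. Stab2, a hyaluronan and scavenger receptor, was too low to be tested. Vehicle replicates 1 to 5 held 1, 0, 0, 3 and 0 fragments and JHU083 replicates 1 to 5 held 7, 20, 16, 21 and 25. These groups did not overlap, which was also so, with JHU083 higher, for 11.2% of tested loci. All vehicle counts of Stab2 lay at or under the floor of 3 fragments, so the size of its difference cannot be given. Cd209a, a C-type lectin gene, rose from 1.69 ± 0.43 to 7.24 ± 3.50 CPM (n = 5, ± SD), or 2.09 on the log2 scale (edgeR adjusted p = 0.000363). It also stands on the dendritic cell list above. Alox15, a lipoxygenase gene of eosinophils and some resident macrophages, rose from 7.26 ± 1.99 to 18.8 ± 5.28 CPM (n = 5, ± SD), by 1.37 (log2, edgeR adjusted p = 0.000173). Chil3, a chitinase-like gene of alternatively activated macrophages, also stands on the monocyte list above. It rose from 4.94 ± 2.55 to 20.8 ± 12.9 CPM (n = 5, ± SD), by 2.08 (log2, edgeR adjusted p = 0.00374). JHU083 replicate 1, at 3.82 CPM, lay inside the vehicle range. JHU083 replicate 1 was the lowest sample of its group for Retnla, Igf1, Chil3, Cd209a, Stab2, Folr2, Cbr2, Fcna and Adgre1, and the highest for Vsig4. For the other tested members another sample was lowest: replicate 3 for Siglec1 and Lyve1, and replicate 4 for Msr1. The genes of this comparison were picked after their values were seen.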
